A study of Mus musculus with 10 samples.

Results

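The 43 collagen genes of the count tables are described here across cultures in which a Polycomb subunit was targeted for knockdown. They were chosen by name, as all genes whose symbol has the form Col, a number, the letter a and a number, except 1 gene not analysed here, and they are 43 of 41091 gene identifiers. Grouped by the kind of polymer their chains form, 11 were fibrillar, 9 network-forming, 6 beaded-filament, 9 fibril-associated (FACIT) and 8 of other types. Collagens are trimers of alpha chains wound into a triple helix, and each type is named by a roman numeral and built from a fixed set of chains. Fibrillar collagens form the banded fibrils of connective tissue, FACIT collagens sit on the surface of those fibrils, type VI collagen forms beaded microfilaments around cells, and type IV collagen forms the sheet that underlies every epithelium, the basement membrane. In the olfactory mucosa the fibrils lie in the lamina propria, made mainly by fibroblasts, while epithelial cells and fibroblasts both contribute to the basement membrane on which the horizontal basal stem cells sit.

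All 3 groups came from C57BL6 mice whose adult olfactory epithelium was taken 9 days after methimazole, which strips the epithelium so that it regenerates. It was dissociated and grown as adherent cultures on gelatin in medium with EGF, FGF2 and heparin. The cultures carried a lentiviral short hairpin RNA: a non-targeting scramble sequence (shCTR, 4 libraries numbered 1, 2, 5 and 6), one against Cbx7 (shCBX7, 3 libraries numbered 1, 2 and 5) or one against Cbx8 (shCBX8, 3 libraries numbered 1, 2 and 6). Cbx7 and Cbx8 encode chromodomain subunits of Polycomb repressive complex 1, and the comparison asks what the cultures expressed when either was targeted. RNA came from whole cultures, so fewer cells of a type and less RNA per cell cannot be told apart. Libraries are called biologic replicates in the labels, which name no separate animals or dishes. The spread behind each p-value is thus that of these libraries and may be technical. Levels are given as CPM, gene counts scaled to the same library total after TMM scaling, always in the order of the library numbers above. Log2 fold changes, their SE and adjusted p-values come from edgeR's quasi-likelihood test over all 10 libraries, adjusted by the Benjamini-Hochberg method over the 16669 genes tested, and a gene is called changed at an adjusted p under 0.05.

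Gene counts ran from 22763014 to 50463172 a library. Cbx8 measured 12.4, 15.9, 10.2 and 10.8 CPM in shCTR, 11.8, 15.5 and 9.96 in shCBX7 and 4.99, 5.14 and 4.71 in shCBX8, and the change in shCBX8 was called (log2 fold change -1.31, SE 0.22, adjusted p = 0.00416). Cbx7 measured 17.7, 16.4, 13.5 and 5.30 CPM in shCTR, 3.64, 8.02 and 13.1 in shCBX7 and 11.6, 9.17 and 14.2 in shCBX8, which overlapped in every pair of groups, so its level does not check the shCBX7 label (adjusted p = 0.929). The shCTR libraries had more unmapped reads (9.83 to 21.7%) than the shCBX7 and shCBX8 libraries (5.03 to 7.81%), highest in shCTR 1 and 2. Of the markers of olfactory cell types, Omp of mature neurons stayed at 0.605 CPM or less and Cyp2g1 of sustentacular cells at 1.94 or less. Other neuron markers were read at higher levels. The sum of 8 neuron markers was 52.0 to 117 CPM in shCTR, 56.2 to 144 in shCBX7 and 24.5 to 82.6 in shCBX8. Of 6 of these tested, 2 were called higher in shCBX8 and none lower, beside 17.0% and 15.9% of all genes. The keratins Krt5 and Krt14 of basal cells (8.37 to 336 and 32.6 to 648 CPM) and fibroblast markers were present in all libraries. The summed level of 16 fibroblast markers that are not collagens was 7295 to 18224 CPM in shCTR, 8109 to 12996 in shCBX7 and 1776 to 5905 in shCBX8, and that of 12 epithelial markers was 179.6 to 2078, 114 to 2293 and 4681 to 12655 CPM.

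In shCBX8 cultures the collagen genes shifted downward. Of the 42 members that passed the low-count filter, 16 were lower and 6 higher than in shCTR, while 20 passed in neither direction. Over all genes tested, 15.9% were lower and 17.0% higher. The median log2 fold change of the 42 members was -1.77, beside -0.01 over all genes. Lower genes included Col1a1 and Col5a2 of fibrils, Col6a1 of beaded filaments, and Col4a1 and Col4a2 of the common basement membrane network. Col1a2 and Col3a1, also of the main fibrils, were not called (adjusted p = 0.0511 and 0.0599). The higher genes were Col4a3 and Col4a4, which form a specialised basement membrane network, Col7a1 of anchoring fibrils, the minor fibrillar gene Col27a1, and the FACIT genes Col9a3 and Col20a1. Collagen genes together took 1.30, 2.90, 1.07 and 0.933% of all gene counts in shCTR, 0.811, 1.88 and 1.14% in shCBX7, and 0.149, 0.440 and 0.151% in shCBX8. All 3 shCBX8 libraries thus lay below every other library, and library 2 was the highest of each group.

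Of the 22 called members, 8 kept their call when any 1 of the 10 libraries was left out: Col4a1, Col4a2, Col5a2, Col8a2, Col10a1 and Col11a1, all lower, and Col9a3 and Col20a1, both higher. Of these, Col10a1 had 3, 1 and 2 counts in the shCBX8 libraries. It passed the low-count filter only through shCTR and shCBX7, and a floor of 1 CPM on the mean removed it. The count of calls was 9 without shCBX8 1, 9 without shCBX8 6 and 28 without shCBX8 2, and between 15 and 21 without any other library. It was 10 without shCTR 1 and 2, the libraries with the most unmapped reads, and 29 without the 3 libraries numbered 2. The 12 calls lost without shCTR 1 and 2 were Col1a1, Col5a1, Col12a1, Col6a1, Col6a2, Col6a3, Col6a4, Col6a6, Col4a3, Col4a4, Col8a1 and Col7a1. The calls gained without the libraries numbered 2 were Col1a2, Col3a1, Col5a3, Col24a1, Col16a1, Col15a1, Col18a1 and Col25a1, and that of Col6a4 was lost. With the library number as a block, used because the deviations of same-numbered shCBX8 and shCTR libraries correlated above 0.1 in all 3 pairs, it was 27. That block also covered the shCBX7 libraries, whose pairing with shCTR did not pass the same rule. At an unadjusted p under 0.05 there were 27 members, beside 45.5% of all genes. Groups did not overlap for 18 members that were lower and 6 that were higher in every shCBX8 library, and 19.5% and 22.9% of all genes did so. Between same-numbered libraries of the 2 groups, 32 of 42 members were lower in shCBX8 1, 33 in shCBX8 2 and 27 in shCBX8 6.

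**Figure D1:**
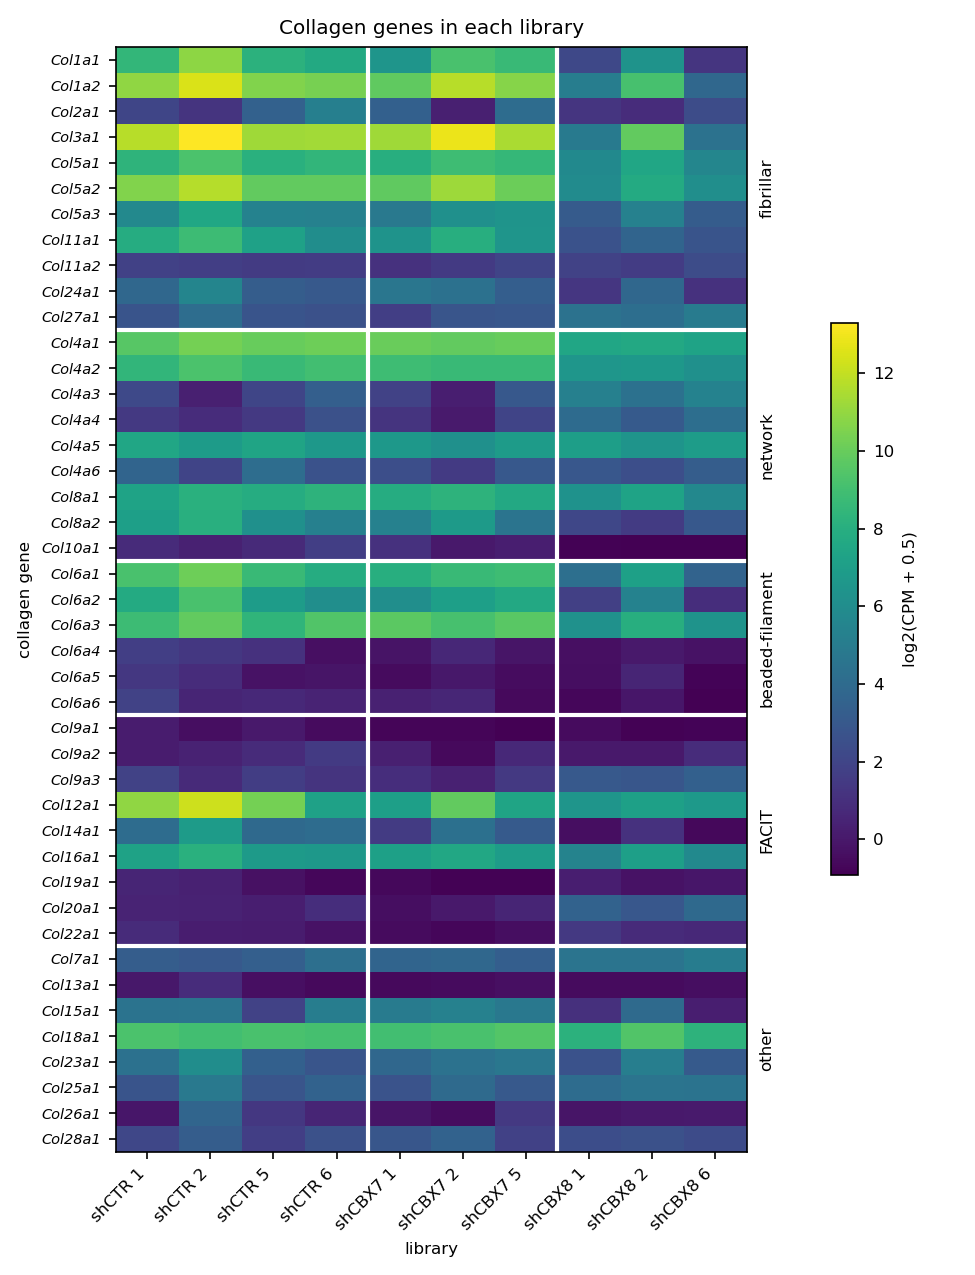
Level of each of the 43 collagen genes in each of the 10 libraries, as log2(CPM + 0.5) on the colour scale, with genes from top to bottom by class and libraries from left to right by group. The 3 shCBX8 columns are darker than the others for Col1a1, Col3a1, Col5a2, Col6a1, Col4a1 and Col8a2 and lighter for Col4a3 and Col4a4, and shCTR 2 is the lightest shCTR column for most fibrillar genes.

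Among the fibrillar genes, 4 of 11 were lower in shCBX8 and 1 was higher, beside 15.9% and 17.0% of all genes. Their median log2 fold change was -2.32. Col1a1, which encodes the main chain of type I collagen, measured 357, 1861, 295 and 207 CPM in shCTR, 88.4, 587 and 415 in shCBX7 and 3.86, 81.8 and 1.91 in shCBX8. Its 3 shCBX8 libraries spread over a wide range but all lay under the lowest shCTR value (log2 fold change -4.54, SE 1.53, adjusted p = 0.0469). Col1a2, the partner chain of type I, measured 1956, 5699, 1548 and 1305 CPM in shCTR, 914, 3473 and 1679 in shCBX7 and 34.1, 561 and 13.8 in shCBX8. Every shCBX8 library was again lower than every other library, but the gene narrowly missed the threshold (log2 fold change -3.70, SE 1.28, adjusted p = 0.0511), and with the replicate block it was called at -4.99 (adjusted p = 0.00496). Col3a1, the only chain of type III collagen, which forms mixed fibrils with type I, measured 3469, 10014, 2455 and 2549 CPM in shCTR, 2418, 7554 and 2840.1 in shCBX7 and 28.8, 952 and 21.0 in shCBX8. It was the most abundant collagen per length in shCTR and shCBX7, and its difference in shCBX8 was not called (log2 fold change -3.79, SE 1.38, adjusted p = 0.0599), but with the block it was, at -5.44 (adjusted p = 0.00725). Without shCBX8 2 the values were -7.88 (adjusted p = 0.00532) for Col1a1, -6.78 (adjusted p = 0.00241) for Col1a2 and -7.54 (adjusted p = 0.00139) for Col3a1, all larger falls and all called. For Col1a1 it was -3.33 (adjusted p = 0.0930) without shCTR 2 and -5.57 (adjusted p = 0.00371) with the block. The call of Col1a1 was lost when shCTR 1, shCTR 2, shCTR 5, any shCBX7 library, shCBX8 1 or shCBX8 6 was left out (adjusted p = 0.0519 to 0.129).

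Type V and type XI collagens are minor chains that start fibrils and set their width. Col5a2 (ENSMUSG00000026042) spans 45374321 to 45503282 of chromosome 1 (GRCm38 here and below). It measured 1573, 3303, 942 and 941 CPM in shCTR, 886, 2335 and 1091 in shCBX7 and 61.0, 218 and 68.5 in shCBX8, a 14.6-fold fall in shCBX8 (log2 fold change -3.87, SE 0.71, adjusted p = 0.00563) that held without any single library. Without shCBX8 2 the value was -4.71 (adjusted p = 0.00260), and without shCTR 1 and 2 it was -3.04 (adjusted p = 0.0277). Col11a1 (ENSMUSG00000027966) spans 114030540 to 114220718 of chromosome 3. It measured 233, 446, 147 and 65.4 CPM in shCTR, 81.9, 249 and 89.3 in shCBX7 and 5.68, 12.2 and 6.41 in shCBX8. It fell 27.6-fold (log2 fold change -4.79, SE 0.77, adjusted p = 0.00366) and also kept its call in every such fit, with a value of -3.74 (adjusted p = 0.0179) without shCTR 1 and 2. Col5a1 measured 316, 612, 272 and 349.8 CPM in shCTR, 251, 470.1 and 371 in shCBX7 and 56.3, 182 and 47.1 in shCBX8 and fell 4.08-fold (log2 fold change -2.03, SE 0.52, adjusted p = 0.0178), a call lost when shCBX8 1 or shCBX8 6 was left out (adjusted p = 0.0667 to 0.0748). It was -2.91 (adjusted p = 0.00158) without shCBX8 2. The fall of Col5a2 exceeded that of its partner Col5a1 in each pair of same-numbered libraries, and the length-scaled ratio of Col5a1 to Col5a2 went from 0.209 to 0.420 in shCTR and 0.227 to 0.384 in shCBX7 to 0.777 to 1.04 in shCBX8, a difference that was not tested. Col5a3 measured 53.1, 184, 40.9 and 39.8 CPM in shCTR, 27.4, 72.5 and 84.0 in shCBX7 and 8.36, 39.4 and 8.64 in shCBX8, not called (log2 fold change -2.08, SE 0.79, adjusted p = 0.0685). With the block it was called at -2.15 (adjusted p = 0.0110), and without shCBX8 2 at -3.22 (adjusted p = 0.0163).

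The other fibrillar genes were less abundant. Col27a1, which encodes a short fibrillar collagen of developing cartilage, was the only fibrillar gene called higher, at 6.18, 17.5, 6.37 and 5.61 CPM in shCTR, 2.82, 6.62 and 7.04 in shCBX7 and 21.3, 18.0 and 30.6 in shCBX8 (log2 fold change 1.39, SE 0.46, adjusted p = 0.0450). That call was lost when any 1 of shCTR 1, shCTR 5, shCTR 6, shCBX7 2, shCBX7 5, shCBX8 1 and shCBX8 6 was left out (adjusted p = 0.0521 to 0.152). Col24a1, another minor fibrillar gene, measured 13.9, 46.2, 9.00 and 7.66 CPM in shCTR, 24.3, 20.6 and 9.65 in shCBX7 and 1.95, 13.8 and 1.63 in shCBX8 and was not called (log2 fold change -1.73, SE 0.90, adjusted p = 0.164), although it was with the block, at -2.15 (adjusted p = 0.0199), and without shCBX8 2, at -3.41 (adjusted p = 0.0166). Col2a1, the chain of cartilage type II collagen, measured 3.64, 1.80, 10.7 and 36.0 CPM in shCTR, 10.4, 0.743 and 16.6 in shCBX7 and 1.91, 1.35 and 4.60 in shCBX8, with the highest value in shCTR 6, and was not called (log2 fold change -2.32, SE 1.18, adjusted p = 0.156). Col11a2 stayed between 1.64 and 4.67 CPM in all 10 libraries (log2 fold change 0.38, SE 0.31, adjusted p = 0.363).

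Of 8 FACIT genes tested, 2 were lower and 2 higher in shCBX8, beside 15.9% and 17.0% of all genes. Col12a1, a large chain on the surface of type I fibrils, measured 1949.7, 4659, 1271 and 148 CPM in shCTR, 138, 947 and 166 in shCBX7 and 89.4, 143 and 109 in shCBX8. The shCTR values differed widely among themselves, and shCBX8 2 lay just under the lowest of them, shCTR 6. The gene was called lower (log2 fold change -4.14, SE 1.14, adjusted p = 0.0235), but not when shCBX8 1 or shCBX8 6 was left out (adjusted p = 0.0865 to 0.0906). Its value was -3.33 (adjusted p = 0.0424) without shCTR 2 and -3.52 (adjusted p = 0.0419) with the block. Col14a1, a related chain, measured 16.8, 115, 15.0 and 16.7 CPM in shCTR, 2.38, 19.1 and 7.89 in shCBX7 and 0.251, 1.62 and 0.150 in shCBX8, with every shCBX8 library the lowest (log2 fold change -5.97, SE 1.34, adjusted p = 0.0113). The value was -4.65 (adjusted p = 0.0154) without shCTR 2 and -7.64 (adjusted p = 0.00763) without shCBX8 2, and the call was lost without shCBX8 1 (adjusted p = 0.0530). Col16a1 measured 153, 269, 110.2 and 98.9 CPM in shCTR, 140.4, 193 and 120.1 in shCBX7 and 42.0, 135 and 55.3 in shCBX8, with shCBX8 2 inside the shCTR range. It was not called (log2 fold change -1.03, SE 0.46, adjusted p = 0.115), but was with the block, at -1.17 (adjusted p = 0.0131), and without shCBX8 2, at -1.70 (adjusted p = 0.0163).

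The higher FACIT genes were of low abundance. Col20a1 (ENSMUSG00000016356) spans 180986535 to 181018363 of chromosome 2. It measured 0.911, 0.852, 0.712 and 1.44 CPM in shCTR, 0.253, 0.535 and 0.951 in shCBX7 and 11, 7.22 and 14.5 in shCBX8, an 11.1-fold rise (log2 fold change 3.47, SE 0.45, adjusted p = 0.00195) that held without any single library. Its span overlaps that of BX649560.1 on the same strand, a gene model that measured 6.39 to 11.1 CPM and was not called (log2 fold change -0.22, adjusted p = 0.402). Whether their exons overlap, and whether that affected either count, was not examined. Col9a3 (ENSMUSG00000027570) spans 180597790 to 180622189 of chromosome 2 and encodes a chain of the cartilage collagen type IX. It measured 3.17, 1.2, 2.67 and 1.81 CPM in shCTR, 1.39, 0.802 and 2.23 in shCBX7 and 7.63, 6.82 and 10.2 in shCBX8 and rose 3.70-fold (log2 fold change 1.89, SE 0.41, adjusted p = 0.00992), also in every such fit. The partner chains of type IX were scarcely read: Col9a2 stayed between 0.178 and 2.27 CPM (log2 fold change -0.65, SE 0.66, adjusted p = 0.467) and Col9a1, with 1 to 15 counts a library, was removed by the low-count filter. Col22a1, known from tissue junctions, measured 1.27, 0.651, 0.605 and 0.346 CPM in shCTR, 0.211, 0.119 and 0.262 in shCBX7 and 2.22, 1.23 and 1.14 in shCBX8 and was not called (log2 fold change 1.10, SE 0.46, adjusted p = 0.0914), but was with the block, at 1.24 (adjusted p = 0.0380), and without shCTR 1, at 1.49 (adjusted p = 0.0395). Col19a1 measured 0.95, 0.801, 0.320 and 0.115 CPM in shCTR, 0.147, 0.0594 and 0.0476 in shCBX7 and 0.691, 0.361 and 0.452 in shCBX8 (log2 fold change -0.08, SE 0.64, adjusted p = 0.932).

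Of the 6 beaded-filament genes, 5 were lower and none higher, beside 15.9% and 17.0% of all genes. None of the 5 calls held on leaving out every library in turn. The main trimer of type VI collagen has 1 chain each from Col6a1, Col6a2 and Col6a3. Col6a1 measured 599, 1136, 414 and 230.2 CPM in shCTR, 255, 412 and 477 in shCBX7 and 18.7, 144 and 11.5 in shCBX8 (log2 fold change -3.36, SE 0.94, adjusted p = 0.0249). Col6a2 measured 219.8, 580.3, 120.2 and 68.8 CPM in shCTR, 68.8, 137 and 198 in shCBX7 and 2.95, 40.5 and 1.38 in shCBX8 (log2 fold change -4.05, SE 1.27, adjusted p = 0.0369). Col6a3 measured 456, 950.4, 334 and 697 CPM in shCTR, 825, 560.3 and 811 in shCBX7 and 75.5, 252 and 82.9 in shCBX8 (log2 fold change -2.16, SE 0.51, adjusted p = 0.0137). All 3 shCBX8 libraries were below every shCTR and shCBX7 library for each of these chains, and shCBX8 2 was the highest of the 3, at 144, 40.5 and 252 CPM. The calls of Col6a1 and Col6a3 were lost when shCBX8 1 or shCBX8 6 was left out (adjusted p = 0.0592 to 0.0872), and that of Col6a2 also when shCTR 1, shCTR 2 or shCTR 5 was (adjusted p = 0.0505 to 0.113). Without shCBX8 2 the falls were larger, at -5.30 (adjusted p = 0.00159) for Col6a1 -6.83 (adjusted p = 0.00334) for Col6a2 and -2.94 (adjusted p = 0.00220) for Col6a3. For Col6a2 the value was -3.23 (adjusted p = 0.0700) without shCTR 2 and -4.80 (adjusted p = 0.00642) with the block.

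Col6a4, Col6a5 and Col6a6 encode chains that can take the place of the Col6a3 chain, and were scarce at 3.17 CPM or less. Col6a6 measured 3.17, 0.952, 1.10 and 0.921 CPM in shCTR, 0.779, 1.04 and 0.166 in shCBX7 and 0.126, 0.451 and 0.0430 in shCBX8 and was called lower (log2 fold change -2.94, SE 0.89, adjusted p = 0.0333), though not when shCTR 1, shCTR 5, shCBX8 1 or shCBX8 6 was left out (adjusted p = 0.0506 to 0.123). Its value was -2.35 (adjusted p = 0.0718) without shCTR 1, -4.13 (adjusted p = 0.0145) without shCBX8 2 and -2.29 (adjusted p = 0.0202) with unstranded counts. On the opposite strand Col6a6 had 0.210, 0.150 and 0.1505 CPM in shCBX8, more than on its own strand in shCBX8 1 and 6. Col6a4 measured 2.73, 2.05, 1.64 and 0.288 CPM in shCTR, 0.379, 1.07 and 0.404 in shCBX7 and 0.272, 0.511 and 0.344 in shCBX8, with shCTR 6 inside the shCBX8 range. Its call (log2 fold change -2.15, SE 0.71, adjusted p = 0.0441) ended with the block, at -1.90 (adjusted p = 0.0840), and when shCTR 1, shCTR 2, shCTR 5, shCBX7 1, shCBX7 5 or any shCBX8 library was left out (adjusted p = 0.0523 to 0.147). Col6a5 measured 0.356 to 2.10 CPM in shCTR and 0.0860 to 0.962 in shCBX8 (log2 fold change -1.30, SE 0.87, adjusted p = 0.269).

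The type IV genes divided between the 3 networks that basement membranes can hold. They lie in 3 head-to-head pairs, and each pair shares the stretch between its start sites, which is why the sequences are shown here beside the levels of the pairs. Col4a1 and Col4a2 form the network found in all basement membranes, Col4a3, Col4a4 and Col4a5 form the one known from glomerulus, lung and inner ear, and Col4a5 with Col4a6 forms the third kind. RefSeq promoter windows (GRCm38.p6) were at hand for 34 of the 43 members, and not for Col12a1, Col14a1, Col1a1, Col22a1, Col26a1, Col2a1, Col4a3, Col5a2 and Col9a3. The stretch of Col4a1 and Col4a2 is chr8:11312797-11312826 on the plus strand, 30 bases that end at the Col4a1 start and include the 22 bases over which the 2 genes overlap in the GENCODE annotation, in their first exons. The stretch of Col4a3 and Col4a4 is chr1:82586850-82586920 on the minus strand, the 71 bases between the gene starts. The starts of Col4a5 and Col4a6 are 1308 bases apart, and the 100 bases upstream of each are chrX:141474077-141474176 on the minus strand and chrX:141475285-141475384 on the plus strand. Capitals mark GGGCGG, the GC box, or CCAAT or TATAAA, on either strand, where these letters occur.
Col4a1/Col4a2: ccctcggcagtgcgcGGGCGGcgtctccaa
Col4a3/Col4a4: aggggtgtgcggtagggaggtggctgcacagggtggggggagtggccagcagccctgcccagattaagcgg
Col4a6: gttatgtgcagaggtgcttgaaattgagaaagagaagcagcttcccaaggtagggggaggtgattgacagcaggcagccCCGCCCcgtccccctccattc
Col4a5: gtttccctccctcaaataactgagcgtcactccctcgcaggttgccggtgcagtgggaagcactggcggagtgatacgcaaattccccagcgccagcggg

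The common pair fell and the Col4a3 and Col4a4 pair rose in shCBX8. Col4a1 (ENSMUSG00000031502) spans 11198423 to 11312826 of chromosome 8. It measured 768, 1291, 1031 and 1136 CPM in shCTR, 1044, 943 and 1015 in shCBX7 and 177, 203 and 157 in shCBX8. Col4a2 (ENSMUSG00000031503) spans 11312805 to 11449287 of chromosome 8. It measured 346, 603, 409.5 and 505 CPM in shCTR, 469.9, 414 and 409 in shCBX7 and 91.9, 99 and 74.1 in shCBX8. The shCBX8 libraries lay close together and far below all others, with a 5.90-fold fall of Col4a1 (log2 fold change -2.56, SE 0.21, adjusted p = 0.000751) and a 5.28-fold fall of Col4a2 (log2 fold change -2.40, SE 0.21, adjusted p = 0.000751), the smallest adjusted p-values of any members. The length-scaled ratio of Col4a1 to Col4a2 was 1.90 to 2.23 in shCTR and shCBX7 and 1.71 to 1.88 in shCBX8, so the pair fell together with a slightly larger fall of Col4a1. That difference in ratio was not tested. Both calls held without any single library.

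Col4a3 (ENSMUSG00000079465) spans 82586921 to 82722059 of chromosome 1. It measured 4.04, 0.751, 3.56 and 9.73 CPM in shCTR, 3.10, 0.683 and 7.49 in shCBX7 and 38.2, 20.2 and 41.3 in shCBX8, a 7.30-fold rise (log2 fold change 2.87, SE 0.84, adjusted p = 0.0291). Col4a4 (ENSMUSG00000067158) spans 82448423 to 82586849 of chromosome 1. It measured 2.22, 1.35, 2.17 and 5.59 CPM in shCTR, 1.81, 0.564 and 3.50 in shCBX7 and 16.1, 7.94 and 18.0 in shCBX8, a 4.92-fold rise (log2 fold change 2.30, SE 0.63, adjusted p = 0.0231). Every shCBX8 library was above every shCTR and shCBX7 library for both genes. These calls were less firm than those of Col4a1 and Col4a2: they were lost when shCTR 1, shCTR 5, shCBX8 1 or shCBX8 6 was left out (adjusted p = 0.0579 to 0.0868), and for Col4a4 also without shCTR 2 (adjusted p = 0.0509). Col4a3 was 3.57 (adjusted p = 0.0196) without shCTR 6 and 3.53 (adjusted p = 0.00512) with the block. Within each group the libraries numbered 2 had the lowest Col4a3 and Col4a4, and these also had the lowest epithelial marker levels of their group, at 179.6, 114 and 4681 CPM. Whether the epithelial share of the cultures had a part in the rise was not tested.

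The third pair did not pass. Col4a5 (ENSMUSG00000031274) spans 141475385 to 141689234 of chromosome X. It measured 181, 119, 163 and 102 CPM in shCTR, 98.8, 74.6 and 119 in shCBX7 and 129, 84.4 and 121 in shCBX8 (log2 fold change -0.34, SE 0.25, adjusted p = 0.305, 95% interval -0.90 to 0.21). Col4a6 (ENSMUSG00000031273) spans 141165403 to 141474076 of chromosome X. It measured 12.2, 3.51, 17.1 and 5.79 CPM in shCTR, 4.99, 2.29 and 7.49 in shCBX7 and 7.17, 4.99 and 9.09 in shCBX8 (log2 fold change -0.45, SE 0.56, adjusted p = 0.563, 95% interval -1.70 to 0.81), with a value of 0.088 under the replicate block. Groups overlapped for both genes, and the interval of Col4a5 lies above the estimate for Col4a1. As a share of the length-scaled type IV signal, the Col4a1 and Col4a2 pair made up 84.2 to 93.5% in shCTR, 90.9 to 94.3% in shCBX7 and 56.4 to 72.6% in shCBX8. The Col4a3 and Col4a4 pair went from 0.0607 to 0.611% in shCTR and shCBX7 to 4.77 to 10.2% in shCBX8, and the Col4a5 and Col4a6 pair from 5.68 to 15.5% to 22.7 to 33.4%. The summed type IV signal was 184 to 282 CPM per kilobase in shCTR, 200.4 to 227 in shCBX7 and 57.2 to 63.0 in shCBX8.

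**Figure D2:**
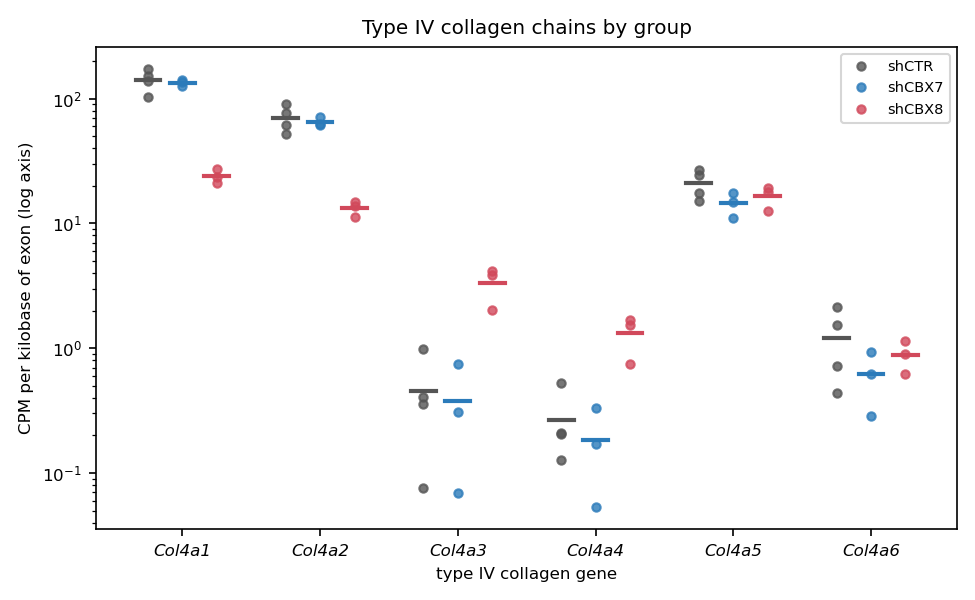
Levels of the 6 type IV collagen genes in CPM per kilobase of exon on a log axis, with 1 point a library and a bar at the mean of each group (shCTR n = 4, shCBX7 n = 3, shCBX8 n = 3). The shCBX8 points lie below all others for Col4a1 and Col4a2, above all others for Col4a3 and Col4a4, and among the others for Col4a5 and Col4a6.

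The other network genes encode types VIII and X, short-chain collagens of vessel walls and the corneal endothelium's membrane (VIII) and of hypertrophic cartilage (X). All 3 of them were lower in shCBX8, beside 15.9% of all genes. Col8a2 (ENSMUSG00000056174) spans 126286793 to 126314330 of chromosome 4. It measured 138, 262, 74.3 and 37.6 CPM in shCTR, 39.3, 111 and 23.0 in shCBX7 and 3.79, 2.44 and 7.29 in shCBX8, a 28.3-fold fall (log2 fold change -4.82, SE 0.87, adjusted p = 0.00535) that held without any single library. Without shCTR 2 the value was -4.22 (adjusted p = 0.00878), and without shCTR 1 and 2 it was -3.64 (adjusted p = 0.0261). Its lowest level was that of shCBX8 2, which was the highest of the 3 shCBX8 libraries for Col1a1, Col5a2 and Col6a1. Col8a1, its partner, measured 161, 277, 233 and 306 CPM in shCTR, 235, 312 and 202 in shCBX7 and 79.6, 159 and 50.8 in shCBX8, with shCBX8 2 next to the lowest shCTR value, and its smaller fall (log2 fold change -1.34, SE 0.38, adjusted p = 0.0262) was not called when shCBX8 1 or shCBX8 6 was left out (adjusted p = 0.0833 to 0.102). Col10a1 (ENSMUSG00000039462) spans 34389981 to 34397085 of chromosome 10. It measured 1.27, 0.801, 1.21 and 2.79 CPM in shCTR, 1.60, 0.535 and 0.690 in shCBX7 and 0.0629, 0.0301 and 0.0430 in shCBX8 (log2 fold change -4.94, SE 0.69, adjusted p = 0.00233). It had 179 counts over the shCTR libraries and 6 over the shCBX8 libraries, a ratio of 35.2 in CPM with a 95% exact interval of 15.9 to 97.2 that covers counting error only. On the opposite strand it had 0.271 to 0.430 CPM in shCBX8 and 0.403 to 0.792 in shCTR, more than on its own strand in each shCBX8 library. With unstranded counts the value was smaller, at -2.58 (adjusted p = 0.00409). The 100 bases upstream of the starts of Col11a1, Col8a2 and Col10a1 follow, at chr3:114030440-114030539, chr4:126286693-126286792 and chr10:34389881-34389980, all on the plus strand with capitals as above, because their calls were among the 8 that no library ended and their windows were in the table with no exon upstream.
Col11a1: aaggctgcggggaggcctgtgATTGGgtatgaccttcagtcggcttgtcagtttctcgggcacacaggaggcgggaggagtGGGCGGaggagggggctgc
Col8a2: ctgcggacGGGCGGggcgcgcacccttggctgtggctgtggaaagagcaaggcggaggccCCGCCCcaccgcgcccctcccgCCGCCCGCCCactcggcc
Col10a1: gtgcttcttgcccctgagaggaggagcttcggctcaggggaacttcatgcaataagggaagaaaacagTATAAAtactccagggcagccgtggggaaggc

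These 3 upstream stretches are unlike one another, with 1 GC box and 1 CCAAT in Col11a1, 4 GC boxes in Col8a2 and a TATAAA in Col10a1. Over the 250 bases before the start, a GC box on either strand occurred in 21 of the 34 members with a window (61.8%), beside 42.7% of 17491 protein-coding promoters. It occurred in 8 of the 12 members called lower, 2 of the 4 called higher and 11 of the 17 tested and not called. CCAAT occurred in 32.4% of the members and 36.3% of the promoters, and TATAAA in 11.8% and 12.4%. A match of letters is a description of the window and shows no binding.

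Among the 8 genes of other types, 1 was higher in shCBX8 and none was lower, beside 17.0% and 15.9% of all genes. Col7a1, which encodes the anchoring fibrils that tie the epithelial basement membrane to the stroma, measured 8.99, 7.76, 9.72 and 18.7 CPM in shCTR, 11.9, 13.7 and 9.49 in shCBX7 and 23.0, 22.8 and 33.0 in shCBX8, with every shCBX8 library the highest (log2 fold change 1.21, SE 0.31, adjusted p = 0.0175). Its call ended without shCBX8 6 (adjusted p = 0.0779). Col18a1, a basement membrane collagen whose end fragment is endostatin, measured 602, 498, 591 and 553 CPM in shCTR, 511, 589 and 708 in shCBX7 and 296, 695 and 307 in shCBX8. It was not called (log2 fold change -0.37, SE 0.29, adjusted p = 0.344). Libraries shCBX8 1 and 6 lay below all shCTR values and shCBX8 2 above them, and without shCBX8 2 it was called at -0.90 (adjusted p = 0.00529). Col15a1, its close relative, measured 22.3, 22.4, 3.20 and 33.4 CPM in shCTR, 31.0, 39.7 and 27.1 in shCBX7 and 1.57, 15.2 and 0.710 in shCBX8, with shCBX8 1 and 6 below all shCTR values and shCBX8 2 among them (log2 fold change -1.81, SE 1.02, adjusted p = 0.194), and was -4.15 (adjusted p = 0.00886) without shCBX8 2. Col18a1 was the most abundant collagen per length in shCBX8, at 61.6 CPM per kilobase (SD 32.4, n = 3), whereas it was the eighth in shCTR at 79.9 (SD 6.67, n = 4) and Col3a1 was first at 471 (SD 369). In shCBX8 Col3a1 was second, at 34.0 with an SD of 54.5, so its place rests on shCBX8 2.

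Col23a1 and Col25a1 encode transmembrane collagens. Col23a1 measured 20.3, 65.9, 10.4 and 6.48 CPM in shCTR, 13.7, 21.2 and 25.3 in shCBX7 and 5.87, 34.6 and 8.08 in shCBX8. Col25a1 measured 6.37, 28.2, 6.58 and 10.9 CPM in shCTR, 6.13, 15.1 and 7.87 in shCBX7 and 16.7, 23.0 and 22.2 in shCBX8. Neither was called (log2 fold change -0.67, SE 0.84, adjusted p = 0.563 and log2 fold change 0.67, SE 0.53, adjusted p = 0.351), and both were highest of the shCTR libraries in shCTR 2. Without shCTR 2 the value of Col23a1 turned to 0.36 (adjusted p = 0.718), and that of Col25a1 was called at 1.34 (adjusted p = 0.0307). Col28a1, of the von Willebrand factor A domain family, measured 3.84, 9.02, 2.81 and 5.64 CPM in shCTR, 6.72, 10.9 and 3.07 in shCBX7 and 4.84, 5.44 and 4.54 in shCBX8 and was not called (log2 fold change -0.11, SE 0.47, adjusted p = 0.879). Col26a1 was at 12.4 CPM in shCTR 2 and at 2.21 or less elsewhere, and Col13a1 was at 1.35 CPM or less, neither called (adjusted p = 0.0873 and 0.144). A mean of at least 5 CPM in some group was reached by 32 members and not by the 11 others.

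**Figure D3:**
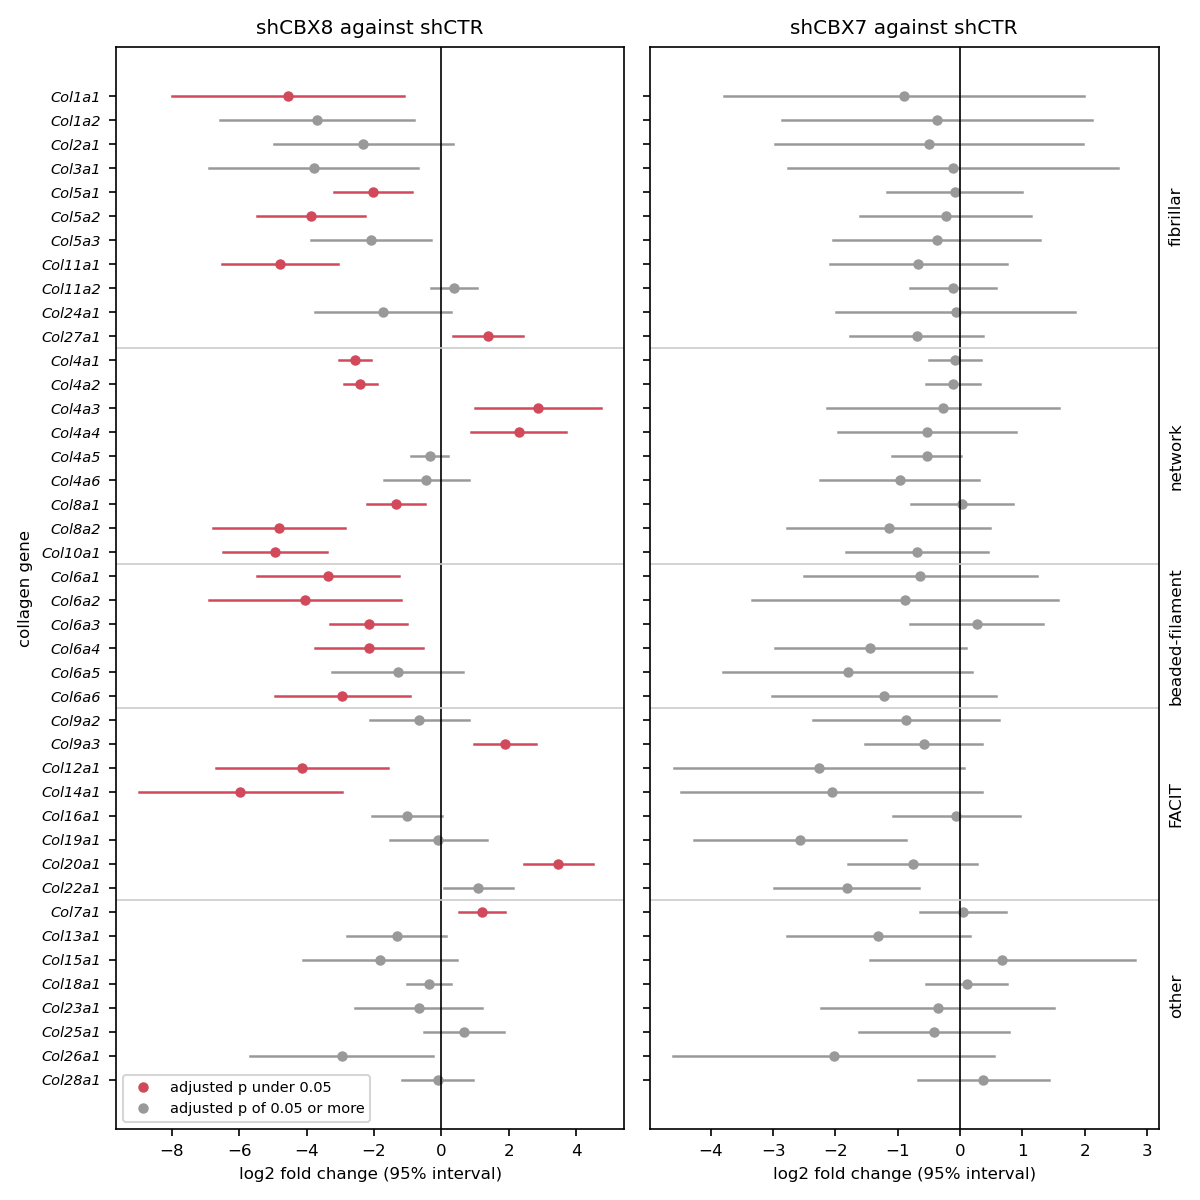
Log2 fold change of the 42 tested collagen genes with its 95% interval, for shCBX8 against shCTR on the left and shCBX7 against shCTR on the right, with genes called at an adjusted p under 0.05 in red. On the left 22 genes are red, 16 to the left of 0 and 6 to the right, and on the right none is red.

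The genes that modify, assemble, bind and break down collagen were followed in 5 lists of 51 genes, of which 50 were tested. In shCBX8 20 of them were lower and 3 higher than in shCTR, beside 15.9% and 17.0% of all genes, and their median log2 fold change was -0.99. Of the 20 genes that hydroxylate, glycosylate and fold the chains, 7 were lower and 2 higher. Serpinh1, which encodes the collagen chaperone HSP47, measured 1435, 2161, 1313 and 1358 CPM in shCTR, 1529, 1674 and 1186 in shCBX7 and 442, 905 and 449.7 in shCBX8 (log2 fold change -1.39, SE 0.31, adjusted p = 0.0115). Crtap, a partner of prolyl 3-hydroxylase 1, measured 75.1, 109, 77.4 and 73.4 CPM in shCTR, 87.8, 99 and 79.8 in shCBX7 and 35.6, 55.7 and 33.7 in shCBX8 (log2 fold change -1.01, SE 0.21, adjusted p = 0.00926). Tmem38b, an ion channel of the endoplasmic reticulum needed for collagen modification, was higher, at 9.54, 10.9, 7.97 and 8.06 CPM in shCTR, 8.85, 11.9 and 11.1 in shCBX7 and 16.1, 13.9 and 16.1 in shCBX8 (log2 fold change 0.75, SE 0.17, adjusted p = 0.0121).

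Of 8 genes that remove propeptides and assemble fibrils, 6 were lower and none higher, beside 15.9% and 17.0% of all genes. Adamts2, the enzyme that removes the amino-terminal propeptide of fibrillar collagens, measured 99.7, 169, 129.9 and 134 CPM in shCTR, 77.8, 105 and 76.7 in shCBX7 and 2.72, 17.6 and 1.66 in shCBX8. It fell (log2 fold change -4.20, SE 0.78, adjusted p = 0.00570) and, like Crtap, kept its call without any single library, with a value of -5.92 (adjusted p = 0.000129) without shCBX8 2. Tll1, a carboxy-terminal propeptidase, was also lower (log2 fold change -2.51, SE 0.68, adjusted p = 0.0222). Sparc, a collagen-binding matrix protein, measured 1195, 3234, 1089.5 and 1926 CPM in shCTR, 1440.0, 3087 and 1339.9 in shCBX7 and 376, 881 and 355 in shCBX8 (log2 fold change -1.79, SE 0.53, adjusted p = 0.0295). Of 6 crosslinking genes, 2 were lower and none higher, beside the same shares of all genes. The lower ones were Pxdn (log2 fold change -1.36, SE 0.37, adjusted p = 0.0220), the peroxidase that crosslinks type IV collagen, and Loxl1 (log2 fold change -2.14, SE 0.70, adjusted p = 0.0430), while Loxl2 was not called (log2 fold change -1.60, SE 0.64, adjusted p = 0.0803). The calls of Serpinh1, Tmem38b, Tll1, Sparc, Pxdn and Loxl1 were lost when shCBX8 1 or shCBX8 6 was left out (adjusted p = 0.0514 to 0.141), that of Sparc also without shCTR 2 (adjusted p = 0.0543) and that of Loxl1 also when any shCTR library, shCBX7 1 or shCBX7 5 was left out (adjusted p = 0.0521 to 0.0873).

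Of 9 tested receptor and uptake genes, 4 were lower and 1 higher, beside 15.9% and 17.0% of all genes. Ddr2, a receptor tyrosine kinase for fibrillar collagen, measured 364, 427, 282 and 377 CPM in shCTR, 291, 434 and 275 in shCBX7 and 50.4, 188 and 32.9 in shCBX8 (log2 fold change -2.0, SE 0.54, adjusted p = 0.0221), whereas Ddr1, its epithelial relative, was the higher gene (log2 fold change 1.0, SE 0.33, adjusted p = 0.0446). The call of Ddr1 was lost when any shCTR library, shCBX7 2, shCBX8 1 or shCBX8 6 was left out (adjusted p = 0.0512 to 0.182) and with the block (1.08, adjusted p = 0.0672). The integrin genes Itga1 (log2 fold change -2.34, SE 0.64, adjusted p = 0.0235) and Itgb1 (log2 fold change -0.71, SE 0.16, adjusted p = 0.0113), whose products pair as a receptor for collagen, were both lower. Of 7 collagen-degrading genes, 1 was lower and none higher, beside the same shares of all genes. The lower one was Mmp2, a gelatinase, at 1046, 1773, 1079 and 1244 CPM in shCTR, 988, 2039 and 1118 in shCBX7 and 55.1, 462 and 65.5 in shCBX8 (log2 fold change -2.73, SE 0.75, adjusted p = 0.0233). Ctsk (log2 fold change -2.41, SE 0.83, adjusted p = 0.0505) and Mmp14 (log2 fold change -0.70, SE 0.31, adjusted p = 0.108) were not called. With the replicate block the log2 fold change was -3.20 for Ctsk (adjusted p = 0.0111) and -0.86 for Mmp14 (adjusted p = 0.0410). The calls of Ddr2, Itga1 and Mmp2 were lost when shCBX8 1 or shCBX8 6 was left out (adjusted p = 0.0607 to 0.0919) and that of Itgb1 without shCBX8 6 (adjusted p = 0.0606), and without shCBX8 2 the falls were larger, at -4.41 (adjusted p = 0.000428) for Mmp2, -3.12 (adjusted p = 0.000439) for Ddr2, -3.21 (adjusted p = 0.00666) for Itga1, -3.36 (adjusted p = 0.00487) for Loxl1 and -4.44 (adjusted p = 0.000620) for Ctsk. Mmp2 was -3.39 (adjusted p = 0.00516) with the block.

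Markers of cell types were read beside these results. Of 15 tested fibroblast markers, 2 were called lower in shCBX8, Fbln1 and S100a4, beside 15.9% of all genes. None was higher, and all 15 had a negative log2 fold change, with a median of -2.19. Of 12 epithelial markers, 9 were higher, beside 17.0% of all genes, and all 12 were positive, with a median of 2.83. Of 6 smooth muscle and pericyte markers Rgs5 alone was higher, beside 17.0% of all genes. The sum of the 6 was 529.5 to 1816 CPM in shCTR and 1739 to 5536 in shCBX8. Most of the fibroblast difference lay in shCBX8 1 and 6: Pdgfra was at 24.3 CPM and 10.8 CPM there, at 540.1 in shCBX8 2 and at 839 to 3860 in shCTR, and Dcn at 119, 95.1, 505 and 357 to 3732 CPM. The mean log2(CPM + 0.5) of the fibroblast markers was 6.08 in shCBX8 2, inside the 5.77 to 7.53 of shCTR, although its summed level of 5905 CPM was below the lowest shCTR sum of 7295. That mean was 3.53 and 3.15 in shCBX8 1 and 6. In the libraries that share its number, shCTR 2 and shCBX7 2, it was 7.53 and 7.23, above that of shCBX8 2. In shCBX8 2 several members were far under the lowest shCTR library: Col8a2 by 15.4-fold, Col14a1 by 9.23-fold, Col11a1 by 5.37-fold, Col5a2 by 4.31-fold, Col4a1 by 3.78-fold and Col4a2 by 3.50-fold. Others were nearer, with Col1a1 2.53-fold, Col1a2 2.33-fold, Col3a1 2.58-fold and Col6a3 1.33-fold below, and Col12a1, Col8a1 and Col5a3 within 1.04-fold. Members not called also lay above the lowest shCTR library in shCBX8 2. Among them were Col16a1, Col18a1, Col24a1, Col15a1 and Col23a1, with ratios of lowest shCTR to shCBX8 2 of 0.733, 0.717, 0.556, 0.211 and 0.187. Chondrocyte and osteoblast markers Acan, Matn1, Sp7 and Ibsp had means of 0.231 CPM or less in every group, and Sox9 was at 35.4, 28.6 and 25.4 CPM. The 8 markers of that list summed to 47.5 to 71.3 CPM in shCTR, 42.4 to 79.3 in shCBX7 and 34.1 to 35.7 in shCBX8. All 3 that were tested had a negative log2 fold change in shCBX8, and 1 was called lower, beside 15.9% of all genes. The part of the fibroblast and epithelial content in the collagen differences was not tested, and the values of shCBX8 2 are those of 1 library.

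**Figure D4:**
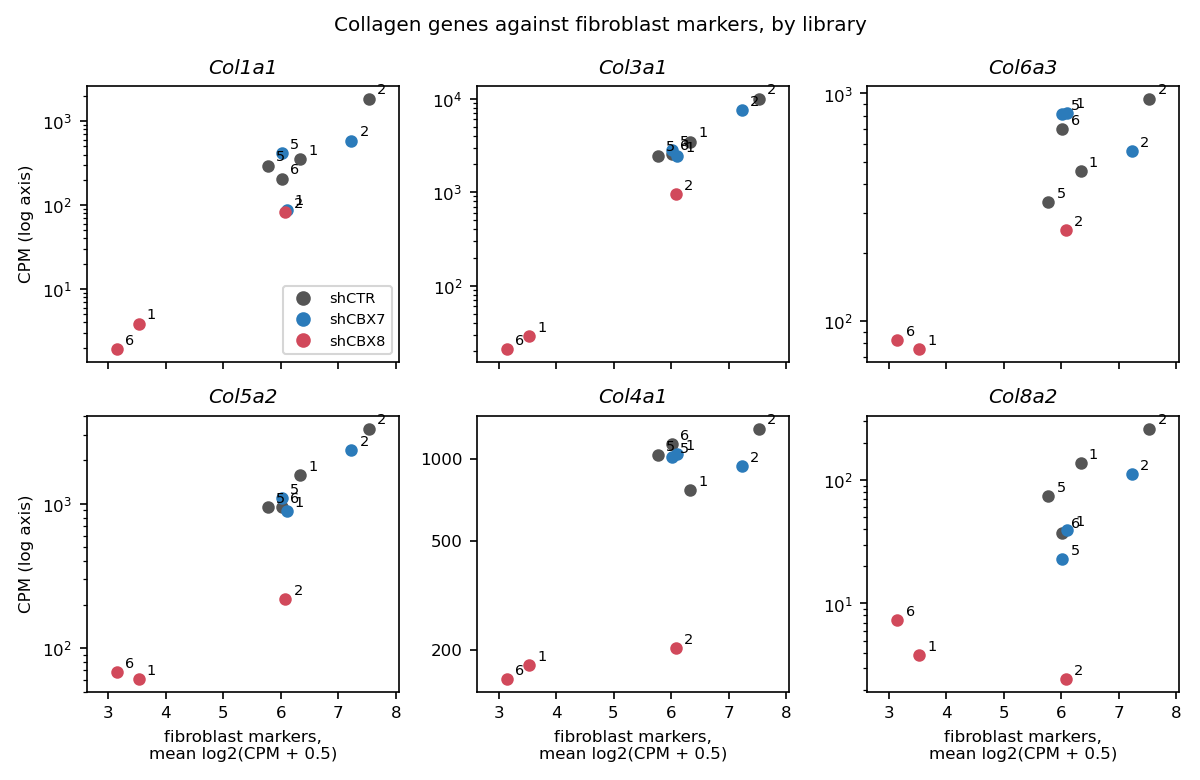
CPM of 6 collagen genes (log axis) against the mean log2(CPM + 0.5) of 16 fibroblast markers that are not collagens, with 1 point a library, coloured by group and labelled with its number. In the x direction shCBX8 2 (6.08) lies among the shCTR and shCBX7 libraries but left of shCTR 2 (7.53) and shCBX7 2 (7.23). In the y direction it is below all shCTR and shCBX7 libraries for each of the 6 genes.

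In shCBX7 no member was called, as was the case for all genes (0.0% called). Cbx7 itself was not called lower there either (log2 fold change -0.67, SE 0.48, adjusted p = 0.929), so a knockdown is not shown. At an unadjusted p under 0.05 there were 2 members, Col22a1 (log2 fold change -1.82, SE 0.52, adjusted p = 0.425) and Col19a1 (log2 fold change -2.57, SE 0.76, adjusted p = 0.461), beside 5.85% of all genes, and DESeq2's Wald test called no member. Both had few reads in shCBX7, with 10, 4 and 11 counts of Col22a1 and 7, 2 and 2 of Col19a1. On the opposite strand Col22a1 had 0.144 to 0.713 CPM in shCTR and 0 to 0.0891 in shCBX7. The median log2 fold change of the 42 members was -0.54, with 36 negative and 6 positive. Over all genes it was 8.85e-05, with 8332 negative and 8337 positive. Members were read in the same few libraries, so their signs are not independent. None of the 50 pathway genes was called. For Col22a1 alone the shCBX7 libraries did not overlap those of shCTR, on the lower side, where 3.73% of all genes did so. No member lay wholly above, as 1.7% of all genes did. Col4a1 had a log2 fold change of -0.079 (95% interval -0.50 to 0.34) and Col4a2 -0.11 (95% interval -0.55 to 0.33), so a fall of the size seen in shCBX8 lies outside them. For Col1a1 the interval ran from -3.79 to 1.98 and for Col3a1 from -2.77 to 2.54, which includes falls and rises of several-fold. Without shCTR 2 the values of Col4a1 and Col4a2 turned positive (0.032 and 0.037).

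Set against shCBX7 directly, shCBX8 had 10 members lower and 8 higher, beside 13.3% and 15.3% of all genes. Groups did not overlap for 16 on the lower and 9 on the higher side, beside 22.6% and 25.6%. This comparison shares the shCBX8 libraries with the one against shCTR, so its values are given beside those and not as a second test. Col4a1 (log2 fold change -2.48, SE 0.21, adjusted p = 0.00133), Col4a2 (log2 fold change -2.29, SE 0.22, adjusted p = 0.00157), Col5a2 (log2 fold change -3.63, SE 0.72, adjusted p = 0.00887), Col11a1 (log2 fold change -4.12, SE 0.76, adjusted p = 0.00695) and Col10a1 (log2 fold change -4.25, SE 0.69, adjusted p = 0.00487) were lower whichever library was left out. Folds moved by over 1.5 times for Col5a2 without shCBX8 2, to -4.49 (adjusted p = 0.00326), for Col11a1 without shCBX7 2, to -3.45 (adjusted p = 0.0192), and for Col10a1 without shCBX7 1, to -3.66 (adjusted p = 0.0155), or with unstranded counts, to -1.92 (adjusted p = 0.0135). Here too Col10a1 passed the low-count filter only through shCTR and shCBX7. Col20a1 (log2 fold change 4.23, SE 0.53, adjusted p = 0.00260), Col9a3 (log2 fold change 2.47, SE 0.46, adjusted p = 0.00699) and Col22a1 (log2 fold change 2.92, SE 0.54, adjusted p = 0.00699) were higher in the same way. The 10 other calls were Col14a1, Col6a3, Col5a1, Col8a1 and Col8a2, lower, and Col19a1, Col27a1, Col4a3, Col4a4 and Col7a1, higher. All 10 ended without shCBX8 1 (adjusted p = 0.0508 to 0.145) and all but Col8a2 without shCBX8 6 (adjusted p = 0.0540 to 0.138). At least 1 shCBX7 library also decided the calls of Col14a1, Col5a1, Col8a1, Col19a1, Col27a1, Col4a3, Col4a4 and Col7a1, and a shCTR library those of Col14a1, Col19a1 and Col4a3. The main type I and III chains were not called here (Col1a1 -3.64, adjusted p = 0.0931, Col1a2 -3.32, adjusted p = 0.0790, Col3a1 -3.68, adjusted p = 0.0751). With the library number as a block, whose pairing rests on 2 numbers here, they were called: Col1a1 at -4.28 (adjusted p = 0.0118), Col1a2 at -4.15 (adjusted p = 0.0124) and Col3a1 at -4.96 (adjusted p = 0.0141). Of the 50 pathway genes, 15 were lower and 3 higher. Genes with small p-values not given above were P3h1 (log2 fold change -1.38, SE 0.36, adjusted p = 0.0227), a prolyl 3-hydroxylase, Bmp1 (log2 fold change -0.87, SE 0.24, adjusted p = 0.0252), the main carboxy-terminal propeptidase, and Loxl4 (log2 fold change 1.53, SE 0.48, adjusted p = 0.0405), a crosslinking oxidase. These 3 calls were lost without shCBX8 1 or shCBX8 6 and without at least 1 shCBX7 library, and that of Loxl4 also without shCTR 1 or shCTR 5.

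Collagen levels also differed between the libraries of a group. Library 2 was the highest of its group for 23 of 42 members in shCTR, 18 in shCBX7 and 25 in shCBX8, beside 31.0%, 36.1% and 39.6% of all genes tested. In shCBX7 library 5 was the highest for as many members, 18, whereas shCTR 5 was the highest for 1. Fibrillar genes made up 67.0% of the collagen CPM in shCTR 2, 75.4% in shCBX7 2 and 49.6% in shCBX8 2. In the other libraries they made up 54.2 to 58.4% in shCTR, 54.6 and 60.3% in shCBX7, and 15.5 and 16.5% in shCBX8. Network genes, by contrast, made up 35.4 and 39.6% of the collagen CPM in shCBX8 6 and 1, against 13.9% in shCBX8 2 and 7.73 to 22.2% in shCTR and shCBX7. Fibroblast markers were also highest in library 2 of each group, at 18224, 12996 and 5905 CPM, and epithelial markers lowest.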

How the data were processed

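RNA was sequenced in 10 libraries of cultures in 3 groups, and 500 ng of RNA entered each library per the labels. The authors deposited 1 table of raw read counts per gene for each library, with counts for unstranded, forward-strand and reverse-strand reads. The submitters' processing notes name bcl2fastq 2.17, Trim Galore 0.4.3, STAR 2.5.0a and the build mm10. Which annotation release they counted on is not stated in the material used here. Reverse-strand counts were used, which held most stranded reads (forward share 3.42 to 10.4%). Reads assigned to no gene, 20.4 to 23.6% in shCTR and 12.5 to 18.6% in shCBX7 and shCBX8, stayed out of library sizes. Symbols, positions and exon lengths came from GENCODE on GRCm38, which matched 40217 of 41091 identifiers (unmatched at most 0.272% of counts). Genes were filtered with filterByExpr (minimum count 10), scaled by TMM and tested with edgeR 4.0.16 (quasi-likelihood, R 4.3.3, limma 3.58.1) with group as the only term over all 10 libraries, and the common biological coefficient of variation was 0.375. P-values were adjusted over 16669 genes at a threshold of 0.05. The fit was tested on simulated counts. Tables and figures were made with Python 3.11.15, pandas 2.3.3, SciPy 1.17.1 and matplotlib 3.10.9. Alternatives were RLE scaling, library size alone, no filter, a floor of 1 CPM on the mean, DESeq2's Wald test (1.42.0), unstranded counts, the 2 groups alone, a replicate block, and leaving out libraries. For the pairing, deviations from the group means over all genes were correlated between same-numbered libraries. The correlation was 0.22, 0.29 and 0.12 for numbers 1, 2 and 6 of shCBX8 and shCTR, so these were taken as paired by the rule that every pair exceed 0.1. Their 9 different-numbered pairs ranged from -0.31 to 0.18, and 3 of these exceeded the value for number 6. The correlation was -0.07, 0.75 and 0.39 for numbers 1, 2 and 5 of shCBX7 and shCTR, which were not taken as paired. The main fit leaves out the pairing, and the block fit applies the library number to all 10 libraries, shCBX7 included. Values were given for each library for members with a group mean of at least 5 CPM or a call, and for up to 3 pathway genes a list by smallest p with a mean of at least 5 CPM. The members, lists and tests were chosen with earlier results of these data known. Promoter windows came from RefSeq on GRCm38.p6. No interval was computed for depth other than where named.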

Additional observations from a re-analysis of the deposited data

Results flagged for a closer look

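Of 42 members checked in the 4 shCTR libraries, 9 had 1 library far from the other 3 (Dixon's test at the 95% level), and chance flags about 1 in 20 such groups. In shCTR 2 the outlying values were all high: Col3a1 at 10014 CPM, Col1a2 at 5699 CPM, Col1a1 at 1861 CPM, Col5a3 at 184 CPM, Col14a1 at 115 CPM, Col24a1 at 46.2 CPM, Col27a1 at 17.5 CPM and Col26a1 at 12.4 CPM. Col6a6 stood apart in shCTR 1, at 3.17 CPM. Of these 9 genes, 6 are fibrillar. In shCTR 2 the fibroblast markers also had their highest sum of all libraries, at 18224 CPM, and the epithelial markers their lowest of shCTR, at 179.6 CPM. Col27a1 was higher still in shCBX8 1 and 6, at 21.3 and 30.6 CPM, where the fibroblast sums were 2258 and 1776 CPM. The part of these markers in the outlying values was not tested.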

How the results depend on the processing

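Over the collagen and pathway values followed under the alternatives, 1431 values kept direction and side of the threshold, 153 lost the call, 40 gained one and 19 changed sign. The cause of each change below was not tested, beyond the smaller number of libraries where some were left out. Leaving out each library in turn gave, for shCBX8 against shCTR, 6 to 22 collagen genes lower (16 with all libraries) and 2 to 6 higher (6), 2 to 28 pathway genes lower (20) and 0 to 4 higher (3), and 1022 to 3200 genes of all lower (2651) and 1231 to 2993 higher (2827). For shCBX7 against shCTR it gave 0 to 40 genes lower and 0 to 1 higher. For shCBX8 against shCBX7 it gave 5 to 21 collagen genes lower (10) and 3 to 8 higher (8), 3 to 31 pathway genes lower (15) and 1 to 4 higher (3), and 780.0 to 3047 of all genes lower (2212) and 1004 to 2958 higher (2550). Without shCTR 1 and 2, the counts for shCBX8 against shCTR were 7 and 3 collagen genes, 2 and 1 pathway genes, and 1304 and 1105 genes of all, lower and higher. DESeq2 called 5 pathway genes higher in that comparison, 89 genes lower and 2 higher in shCBX7, and 26 pathway genes lower and 5 higher in shCBX8 against shCBX7. Without the 3 libraries numbered 2, that last comparison had 20 collagen and 29 pathway genes lower and 6 pathway genes higher. With the replicate block it had 18 collagen and 27 pathway genes lower. In shCBX8 against shCTR the block gained 6 members and lost Col6a4, given above, and changed no other call of a member. Scaling by library size alone moved the median of all genes from -0.01 to 0.17 (shCBX8 against shCTR) and from 0.00 to 0.15 (against shCBX7). The share of calls that were lower went from 48.4 to 32.8% and from 46.5 to 32.9%, and 6 pathway genes were higher against shCTR. Of the 22 collagen calls 21 remained, all but Col6a4. A floor of 1 CPM on the mean removed Col10a1, Col6a4 and Col6a6 (19 calls). With only the 2 groups Col1a1, Col27a1, Col6a2 and Col6a4 were lost (18 calls). Col1a2 was gained with RLE scaling, without the filter (where Col6a4 was lost) and with DESeq2, which also gained Col5a3 and Col26a1. In shCBX8 against shCTR the members' values that changed sign, none of them called, were Col19a1 (0.12 by library size, 1.21 without shCTR 1 and 2, 0.36 without the libraries numbered 2, and -0.44 to 0.32 on leaving out single libraries), Col28a1 (0.10, 0.20 and 0.20, and -0.32 to 0.24 on leaving out single libraries, the highest without shCTR 2), Col6a5 (0.12) and Col23a1 (0.91) without shCTR 1 and 2, Col23a1 on leaving out single libraries (-1.88 to 0.36, the highest without shCTR 2) and Col4a6 with the block (0.088). Of the shCBX7 values given above, those that did so were Col4a1 (0.0096 with unstranded counts, 0.085 without the libraries numbered 2, and -0.21 to 0.032 on leaving out single libraries) and Col4a2 (0.079 without the libraries numbered 2, and -0.24 to 0.037), the highest of both without shCTR 2.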
